A study of Mus musculus with 58 samples.

Results

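The cytosolic ribosomal protein genes encode the proteins of the large (60S) and small (40S) subunits of the ribosome outside mitochondria. Their levels were followed in bulk RNA sequencing of mouse somatosensory cortex after repeated mild head injury. Members were chosen by gene symbol alone: names starting with Rpl or Rps and a digit, the stalk genes Rplp0, Rplp1 and Rplp2, and Rpsa. S6 kinase genes, binding protein genes and pseudogene names were left out. This rule found 77 of the 9636 genes in the count table, 44 of the large subunit, 30 of the small subunit and 3 of the stalk, and used no measured value.

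The mice were C57BL/6J, 2 to 4 months old, and underwent either closed head injury once daily for 5 days (5xCHI) or a sham procedure on the same schedule. The p38 MAPK inhibitor SB239063 (SB) at 20 mg/kg in saline, or saline vehicle alone, was given intraperitoneally 30 min after each injury or sham procedure. All 58 libraries belong to the chronic time of about 1 month after the last procedure, for which the design names about 18 and 34 days without assigning mice to either. The 23 male (M) libraries comprised 8 of 5xCHI + SB, 8 of 5xCHI + vehicle, 2 of sham + SB and 5 of sham + vehicle. The 35 female (F) libraries comprised 11 of 5xCHI + SB, 12 of 5xCHI + vehicle, 3 of sham + SB and 9 of sham + vehicle. The labels place the males in cohorts M1 to M4 and the females in cohorts F1 to F4, and sham + SB mice occur only in M1, M2, F1 and F2. All mice were injected, so no uninjected group enters any comparison.

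Ribosomal protein genes are among the most evenly expressed genes of a cell, because most of the proteins are needed in equal number. Most of their mRNAs begin with a cytosine followed by a run of pyrimidines, the 5′ terminal oligopyrimidine (TOP) motif. Through this motif the kinase complex mTORC1 and the RNA-binding protein LARP1 control their translation and storage as a group. In neurons some of these mRNAs are also found in axons and dendrites, where ribosomes can be supplied with proteins made locally.

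The pyrimidine run can be read in the RefSeq promoter sequences. These are of the build GRCm38.p6, whereas the submitters' processing notes name GRCm39/mm39, so the coordinates below belong to the reference table and not to the counted files. The table held 57 of the 77 members. Each line shows 30 bases, 15 on either side of the annotated transcription start, and capitals mark the unbroken run of C and T over the start. The 10 genes shown are examples from both subunits and the stalk, chosen by hand among the members with such a run to show what it looks like. The marked runs begin upstream of the annotated start, whose base is not always C (T in Rps24). They therefore do not show the TOP motif itself.

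Rps6: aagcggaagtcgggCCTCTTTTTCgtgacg
Rps15a: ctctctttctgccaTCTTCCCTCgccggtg
Rps24: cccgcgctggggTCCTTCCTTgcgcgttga
Rps27: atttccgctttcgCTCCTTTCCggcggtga
Rps18: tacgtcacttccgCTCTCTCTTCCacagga
Rpl28: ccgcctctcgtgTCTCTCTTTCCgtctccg
Rpl38: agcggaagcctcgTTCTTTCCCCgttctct
Rpl35: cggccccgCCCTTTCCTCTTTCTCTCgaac
Rpl35a: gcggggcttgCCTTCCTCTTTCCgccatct
Rplp2: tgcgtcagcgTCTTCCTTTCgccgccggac

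The windows lie at chr4:86857353-86857382 on the minus strand (Rps6), chr7:118116133-118116162 minus (Rps15a), chr14:24490663-24490692 plus (Rps24), chr3:90213634-90213663 minus (Rps27) and chr17:33955651-33955680 minus (Rps18). For the large subunit and stalk they are chr7:4792950-4792979 plus (Rpl28), chr11:114668565-114668594 plus (Rpl38), chr2:39005117-39005146 minus (Rpl35), chr16:33056467-33056496 plus (Rpl35a) and chr7:141447636-141447665 plus (Rplp2). Each window spans the 5′ edge of the first exon and the bases just upstream. A run of at least 6 pyrimidines over the start was present in 18 of the 57 members (31.6%), against 656 of 7764 measured genes with a promoter in the table (8.45%). The letters CTCTTTC on the sense strand, within 50 bases of the start, were found in 12 members (21.1%), against 1.61% of all measured promoters. The letters CCGGAAG, searched on both strands of the 300 bases, occurred in 23 members (40.4%), against 20.6%. AAGATGGC on both strands occurred in 6 members (10.5%) against 5.78%, TATAAA in 7 (12.3%) against 8.08%, and GGGCGG in 36 (63.2%) against 72.1%. CTCTTTC can lie within the pyrimidine run, CCGGAAG and AAGATGGC can share the letters AAG, and all shares describe letters in these windows only.

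Counts of these genes carry 1 limit throughout. Most of them have processed pseudogenes with near-identical sequence, and the rule for reads that fit several places, like the strand setting, is stated by neither the labels nor the file. The table holds listed genes only, none with a count under 101, and library totals over them ran from 28316280 to 49158277. The smallest count of any member in any library was 231. The part of counting error in the spread between libraries was not tested. All 6 excitatory neuron markers were measured, with a summed level of 4513 to 9026 CPM (read counts relative to the library total) over the libraries. Of the 4 listed markers of choroid plexus and the 5 of blood, 0 were in the count table. Admixture of either could therefore not be checked with these markers.

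Levels were compared as TMM-scaled CPM, where TMM is a scaling that sets most genes equal between libraries. Ribosomal protein genes together made up 0.929% to 1.57% of the counts of a library, with a median of 1.06%. The median member stood at 121 CPM on average, and 48 of the 77 exceeded 100 CPM. Rpl4 and Rpl3, which contact the rRNA core of the large subunit, led with a mean of 451 CPM (388 to 564 over the libraries) and 425 CPM (362 to 543). Rpsa, the 40S protein also known as the laminin receptor precursor, averaged 331 CPM (272 to 474), and Rps3, at the mRNA entry of the small subunit, 285 CPM (221 to 471). The lowest members were Rpl13a at 10.7 CPM (7.29 to 15.1), Rpl39 at 33.8 CPM (19.0 to 50.7), Rpl22l1 at 40.2 CPM (22.7 to 63.5) and Rps28 at 41.5 CPM (33.7 to 62.9). The range between Rpl4 and Rpl39 was far wider than the range of either gene over libraries. Rpl13a has many processed copies in the genome, and its level rests on the unstated rule for such reads.

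**Figure D1:**
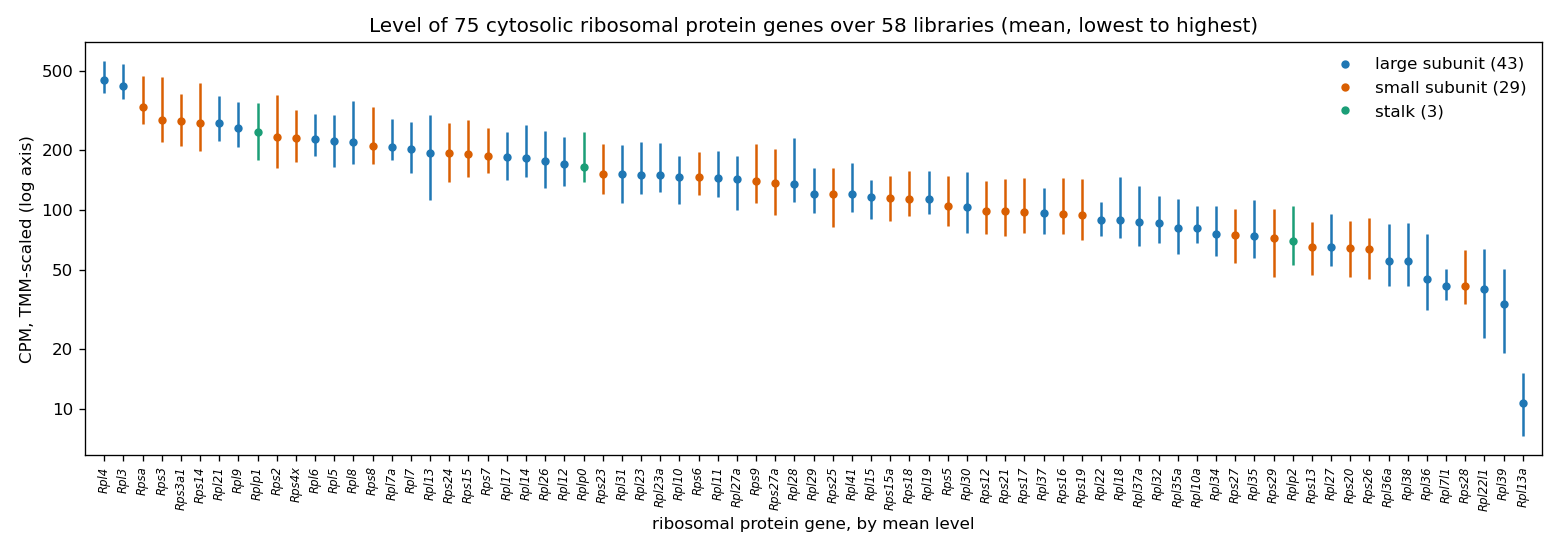
Mean level of 75 of the 77 ribosomal protein genes (points, CPM on a log axis) with its lowest and highest of 58 libraries (lines), coloured by subunit and ordered by mean. Rpl4 stands highest at 451 CPM and Rpl13a lowest at 10.7 CPM, and all others shown lie between them.

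Per length the order changed, since these transcripts are short: the median member measured 737 nt and the median of all genes 2823 nt. Divided by annotated transcript length, the stalk gene Rplp1 came first with a mean level of 495 CPM per kb, then Rps14 with 461, Rps24 with 414 and Rps15 with 382 CPM per kb. The lowest levels per length were Rpl13a with 10.2, Rps20 with 17.3, Rpl7l1 with 31.8 and Rpl39 with 55.2 CPM per kb. The Rps20 value rests on an annotated transcript of 3706 nt, the longest of all members. The other stalk genes, which with Rplp1 form the lateral arm that recruits elongation factors, had 122 (Rplp0) and 167 (Rplp2) CPM per kb.

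Several members are known for more than their place in the ribosome. Rps6, the phosphorylation target of S6 kinase, averaged 147 CPM (120 to 197). Rps27a, translated as a fusion with ubiquitin, averaged 137 CPM (94.8 to 203). Rpl5 and Rpl11, which carry 5S rRNA and bind the p53 regulator Mdm2 when ribosome assembly fails, averaged 224 CPM (165 to 303) and 145 CPM (116 to 199). Rpl10, a late-joining protein of the large subunit, averaged 147 CPM (108 to 187), and Rpl41, which encodes the smallest ribosomal protein, 120 CPM (97.9 to 173). Rps19 and Rps14, of which too little causes human anaemias, averaged 94.8 CPM (71.2 to 144) and 275 CPM (200 to 436). These spreads over libraries were of similar size, and across members the highest library exceeded the lowest by a median of 1.85 times, with 1.44 times for Rpl7l1 and 2.80 times for Rpl22l1 at the extremes.

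The paralogs Rpl22l1 and Rpl7l1 are encoded by genes of their own beside Rpl22 and Rpl7. Rpl22l1 reached 0.449 times the CPM of Rpl22 (0.405 times per kb), with 40.2 CPM against 89.4 CPM. Rpl7l1 reached 0.206 times the CPM of Rpl7 (0.182 times per kb), with 41.7 CPM against 203 CPM. After group and cohort means were removed, the correlation over the 58 libraries was 0.59 for Rpl22l1 and Rpl22 and 0.21 for Rpl7l1 and Rpl7. Rpl22l1 was the most variable member, with a residual SD of 0.27 (log2 CPM), and Rpl22, Rpl7l1 and Rpl15 the least variable, with 0.11 each.

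The members varied together from library to library. After removal of group and cohort means, the median correlation over 58 libraries was 0.73 across 2926 pairs of members, of which 2906 were above 0. All of these points share library, depth, scaling and the removed means, so the values are a description without a test. Of the 77 members, 52 correlated above 0.8 with the mean of the others. Rpl32, Rps18 and Rps16 followed the rest most closely, at 0.95, 0.94 and 0.94. Pairs within the small subunit had a median of 0.76, pairs within the large subunit 0.71 and mixed pairs 0.74. Among the closest single pairs were Rpl37a with Rps21 at 0.96, and Rps14 with Rps3 and Rpl18 with Rpl28 at 0.95 each. Subunit membership thus made little difference to how closely 2 members moved together. The median residual SD was 0.17 (log2 CPM) over the members and 0.16 over all genes.

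A few members stood apart from this common movement. Rps15a correlated with the mean of the others at only 0.30, Rpl7l1 at 0.40 and Rpl22l1 at 0.47. The lowest pairs all held Rps15a, with Rpl13a (-0.24), Rpl28 (-0.23) and Rpl29 (-0.20), while its closest partner was Rpl39 at 0.83. Rpl39, a very short protein of the exit tunnel, was also the closest partner of Rpl22l1, at 0.87. The 4 lowest libraries were the same for both genes and all came from cohort F3. For Rpl39 they were F 5xCHI + SB replicate 10 at 19.0 CPM, F 5xCHI + vehicle replicates 3 and 2 at 20.3 and 20.8 CPM, and F sham + vehicle replicate 4 at 20.9 CPM. In the same libraries Rpl22l1 stood at 24.1, 22.7, 30.0 and 26.3 CPM. These 4 libraries span 3 conditions.

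Another small set formed around Rpl13, a large subunit gene. Its closest partner was Rps2, at 0.91, and it correlated with Rpl36 at 0.88, partners that were chosen after their values were seen. The 2 lowest libraries of Rpl13 were F sham + vehicle replicate 5 (cohort F3) at 112 CPM and M 5xCHI + vehicle replicate 7 (cohort M3) at 132 CPM. Rps2 was lowest in the same libraries, at 163 and 177 CPM. Rps2 was highest in M sham + vehicle replicate 2 (cohort M3) at 382 CPM and F sham + vehicle replicate 1 (cohort F2) at 346 CPM. Rpl36 and Rpl39 had the next largest residual SD after Rpl22l1, both 0.26 (log2 CPM).

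**Figure D2:**
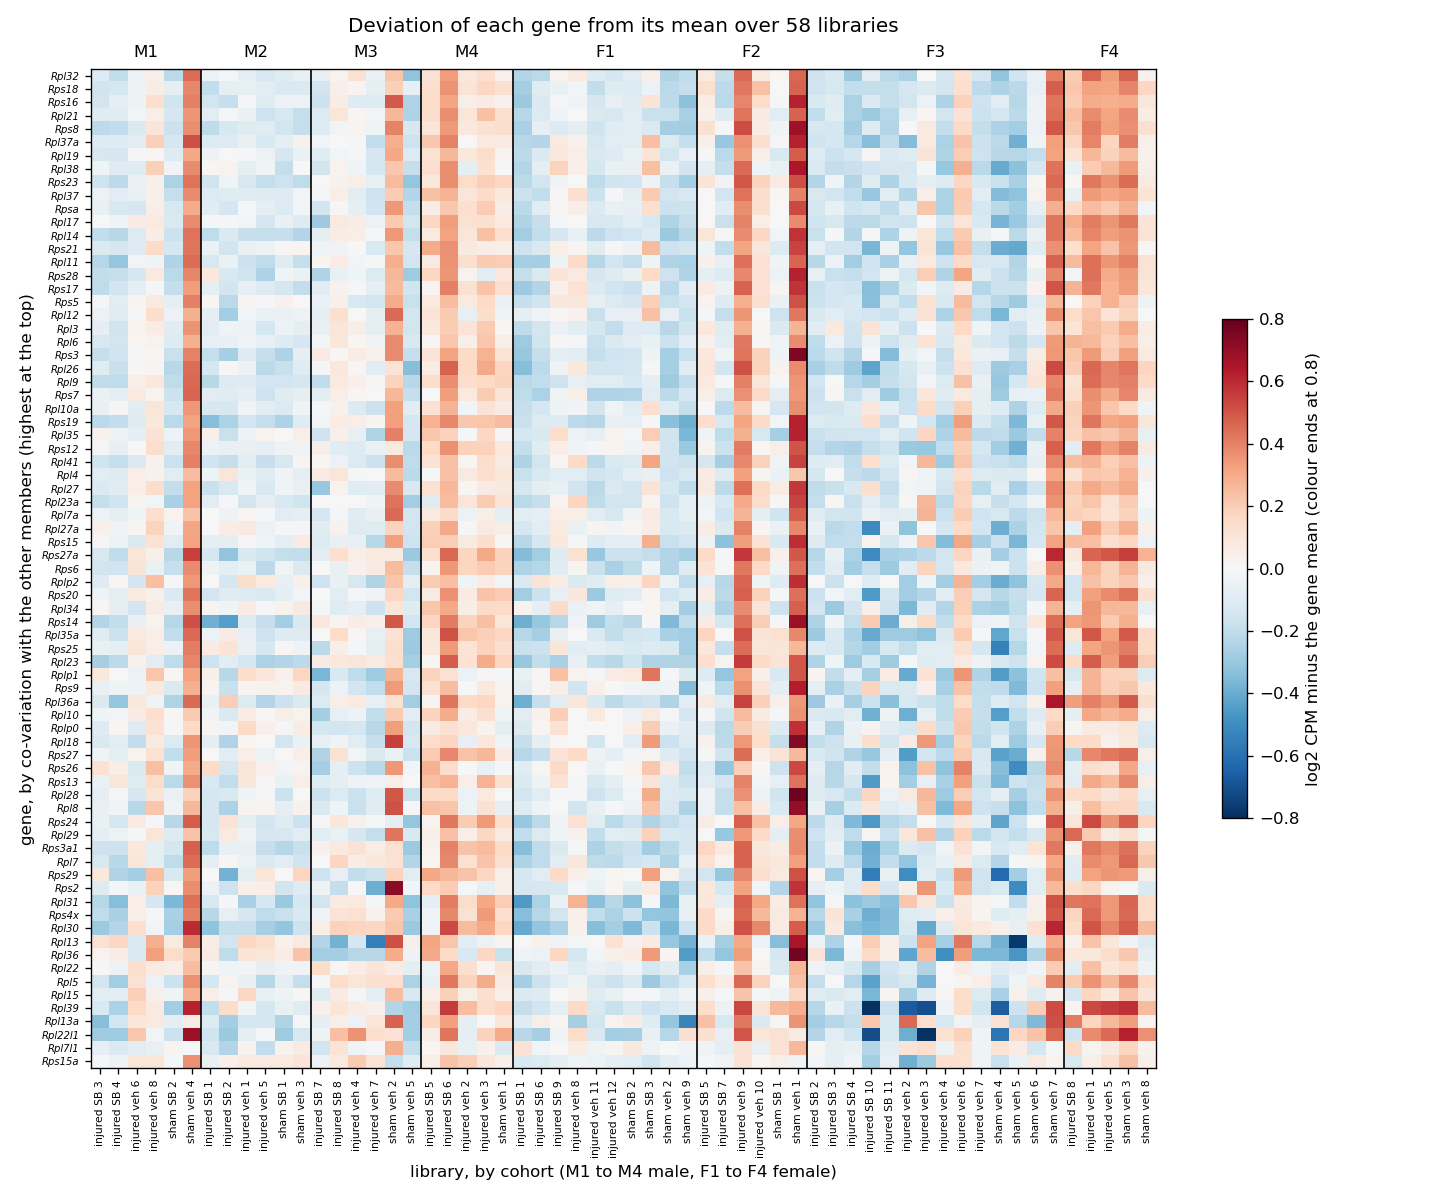
Deviation of 75 of the 77 genes (rows, most co-varying at the top) from its own mean over 58 libraries (columns, by cohort and condition), in log2 CPM. Whole columns are red or blue, as in F sham + vehicle replicate 1 where 76 of all 77 genes were above their mean, while Rps15a and Rpl7l1 at the bottom stay pale.

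Some libraries raised or lowered nearly the whole set. The mean log2 CPM over the 77 genes ran from 6.69 to 7.38. It was highest in F sham + vehicle replicate 1 of cohort F2 (7.38, with 76 of 77 genes above their own mean), F 5xCHI + vehicle replicate 9 of F2 (7.30, 77 of 77), F sham + vehicle replicate 7 of F3 (7.29, 76 of 77) and M sham + vehicle replicate 4 of M1 (7.28, 76 of 77). It was lowest in F sham + vehicle replicates 4 and 5 of F3, at 6.69 and 6.70 and each with 74 of 77 genes below their mean. The highest and the lowest library therefore belong to 1 group, female sham + vehicle. Over conditions the mean was 6.86 ± 0.13 in 5xCHI + SB (SD, n = 19), 6.95 ± 0.16 in 5xCHI + vehicle (SD, n = 20), 6.86 ± 0.06 in sham + SB (SD, n = 5) and 6.98 ± 0.25 in sham + vehicle (SD, n = 14). The 4 ranges overlapped.

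Transcript length and other short-transcript genes moved with these libraries. The slope of all other genes' deviations on log2 transcript length was -0.16 in F sham + vehicle replicate 1, -0.17 in F 5xCHI + vehicle replicate 9, -0.15 in F sham + vehicle replicate 7 and -0.14 in M sham + vehicle replicate 4, so longer transcripts were lower there. It was 0.03 and 0.06 in F sham + vehicle replicates 4 and 5. By condition the mean slope was 0.02 in 5xCHI + SB, -0.01 in 5xCHI + vehicle, 0.03 in sham + SB and -0.03 in sham + vehicle. The 25 measured oxidative phosphorylation genes averaged 6.06, 6.14, 6.09 and 6.22 log2 CPM in the same order. F sham + vehicle replicate 1 also held the highest summed oligodendrocyte marker level, 19675 CPM. The other libraries of high member mean did not share this level. They had 9903 CPM (F 5xCHI + vehicle replicate 9), 4909 CPM (F sham + vehicle replicate 7) and 6298 CPM (M sham + vehicle replicate 4). F sham + vehicle replicates 4 and 5, of lowest member mean, had 9074 and 5283 CPM. What part the slope or the cell makeup plays in the ribosomal protein gene levels was not tested, and in bulk tissue fewer cells of a type and less RNA per cell cannot be told apart. On principal components over all genes, 4 libraries lay far from the rest. They were F 5xCHI + SB replicate 8, F sham + vehicle replicates 1 and 7 and M sham + vehicle replicate 2. The fitted member counts below were repeated without these 4, and the counts of other gene lists and markers were not. Shares of all genes at an unadjusted p under 0.05 are given for the main edgeR fit only.

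**Figure D3:**
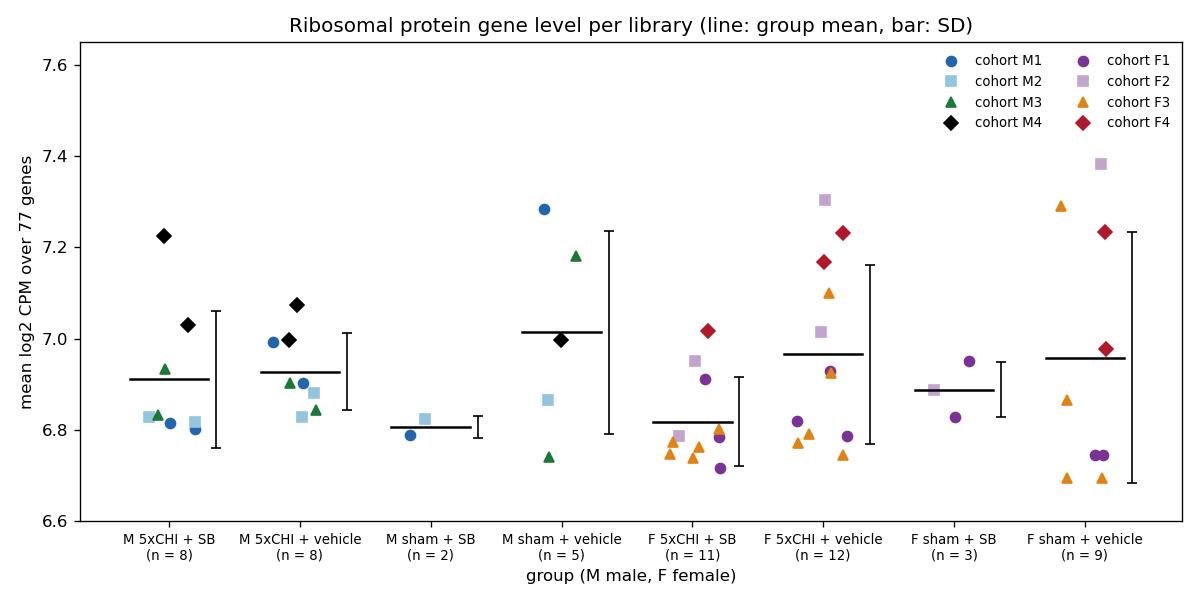
Mean log2 CPM over the 77 genes in each library (points, shaped and coloured by cohort) for the 8 groups, with the group mean (line) and SD (bar). Female sham + vehicle holds both the highest value, 7.38, and the lowest, 6.69, and cohorts F4 and M4 lie high within most groups.

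Many of these genes differed between the female cohorts. With conditions held in the model, 56 of the 77 members differed between cohorts F1 to F4 (adjusted p under 0.05 by edgeR), which is 72.7%, against 50% of all genes. At an unadjusted p under 0.05 the count was 59 (76.6%), against 57.2% of all genes. Those that passed after adjustment comprised 25 of the 30 small subunit genes and 31 of the 44 large subunit genes. None of the 3 stalk genes passed, the smallest adjusted p by edgeR being 0.134 for Rplp2. The mean over the members was 6.82 in F1, 7.05 in F2, 6.84 in F3 and 7.13 in F4 (log2 CPM), beside a mean length slope of 0.04, -0.05, 0.02 and -0.08. With length-corrected scaling 38 members (49.4%) passed, against 45.2% of all genes.

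Rpl23, a large subunit protein at the interface with the small subunit, had the smallest p. It stood at 121, 127 and 143 CPM (lowest, median and highest) in F1, at 152, 165 and 220 CPM in F2, at 122, 140 and 214 CPM in F3, and at 167, 171, 188, 207 and 209 CPM in F4. All F4 and F2 libraries lay above all F1 libraries, and F3 overlapped the others (adjusted p = 3.79e-06 by edgeR). The small subunit gene Rps3a1 averaged 243 ± 15.3 CPM in F1, 322 ± 40.3 in F2, 265 ± 39.2 in F3 and 340 ± 40.4 in F4 (SD, n = 10, 6, 14 and 5; adjusted p = 1.56e-05 by edgeR). Rpl30, whose protein represses splicing of its own transcript in yeast, averaged 85.5, 125, 98.8 and 131 CPM in that order, and Rps27a 118, 161, 126 and 175 CPM (adjusted p = 1.85e-05 and 2.57e-05 by edgeR). All 4 genes had the same order of cohorts, F1 below F3 below F2 below F4. Rplp0 had 167, 177, 159 and 169 CPM in F1 to F4 (adjusted p = 0.333 by edgeR). The 21 members that did not pass ranged from Rps29 (adjusted p = 0.0566) to Rpl13 (adjusted p = 0.73 by edgeR) and include Rps2, Rpl36, Rps15a and Rpl7l1.

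In males 0 of the 77 members passed the same test of cohorts M1 to M4, against 3.83% of all genes by edgeR. There 21 (27.3%) had an unadjusted p under 0.05, against 19.9% of all genes. DESeq2 called 4 members (5.19%) against 6.36% of all genes, and voom with quality weights 41 (53.2%) against 31.6%. Without the 4 far libraries edgeR called 20 members (26.0%) against 13.1% of all genes. The smallest p belonged to Rps19, with 73.7 to 87.4 CPM in M2, 80.5 to 117 CPM in M1, 84.7 to 117 CPM in M3 and 109, 109, 111, 113 and 122 CPM in M4 (adjusted p = 0.0501 by edgeR). M2 and M4 did not overlap. Rps14 averaged 270 CPM in M1, 228 in M2, 291 in M3 and 316 in M4 (adjusted p = 0.0701 by edgeR). Rpl23 and Rpl30 followed at adjusted p = 0.0754 and 0.0813 by edgeR, with cohort means between 132 and 174 CPM and between 86.6 and 122 CPM. The male cohort means over all members were 6.93, 6.84, 6.91 and 7.06 (log2 CPM) in M1 to M4.

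Injury was compared with sham in vehicle mice to find which genes still differed a month after the last injury. No ribosomal protein gene passed: edgeR, DESeq2 and voom called 0 members and 0 genes (0% of all genes), and edgeR gave 0 members an unadjusted p under 0.05, against 1.75% of all genes. The fitted log2 fold changes were small and mostly below 0, in 74 of 77 members against 50.6% of all genes, with a member median of -0.06 and a median over all genes of -0.00067. All 44 large subunit genes, 27 of 30 small subunit genes and all 3 stalk genes were below 0. The 95% interval of every member lay within a 1.5-fold change in either direction. Leaving out any 1 library left 47 to 76 members below 0, with 47 without M sham + vehicle replicate 4. Without the 4 far libraries 8 were below 0, at a median of 0.04, and with voom and quality weights 2 were, at a median of 0.05.

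Rpl37a, a zinc finger protein of the large subunit, had the smallest p. It measured 68.1, 86.4 and 114 CPM (lowest, median and highest) in the 20 5xCHI + vehicle libraries, against 66.3, 89.0 and 133 CPM in the 14 sham + vehicle libraries. The injured range lay within the sham range (log2 fold change -0.12 ± 0.07 SE, adjusted p = 1.0 by edgeR). Rps16 averaged 97.0 ± 12.0 CPM in 5xCHI + vehicle and 103 ± 22.7 CPM in sham + vehicle, at a log2 fold change of -0.10. Rps3 averaged 291 ± 37.8 and 309 ± 66.9 CPM in the same order, at -0.09, and its highest sham library was F sham + vehicle replicate 1 at 471 CPM. The 3 members above 0 were Rps15a (0.02), Rps27 (0.01) and Rps24 (0.01). Of the members described by role, Rps14 was at -0.09, Rpl41 at -0.09, Rplp2 at -0.07, Rpl11 at -0.07, Rps6 at -0.06 and Rpl5 at -0.01 on the log2 scale.

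SB was compared with vehicle in injured mice to ask how p38 inhibition after each injury bore on later transcript levels. Again 0 members passed (0% of all genes by edgeR and DESeq2), and voom called 1 gene, no member. By edgeR 9 members (11.7%) had an unadjusted p under 0.05, against 7.06% of all genes. That count was 4 without the cohort term, 18 without the 4 far libraries and 32 with voom. All 77 fitted log2 fold changes were below 0, against 47.8% of all genes, with a member median of -0.07 and an all-gene median of 0.0034. The small subunit median was -0.08, the large subunit median -0.06 and the stalk median -0.06. Between 75 and 77 members stayed below 0 when any 1 library was left out, and all 77 did without the 4 far libraries and with voom. With length-corrected scaling the median was -0.03 and 68 members were below 0. The 95% interval of every member lay within a 1.5-fold change.

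Rps4x, an X-linked small subunit gene, was among the members of smallest p. It measured 174, 207 and 298 CPM (lowest, median and highest) in the 19 libraries of 5xCHI + SB, against 191, 235 and 314 CPM in the 20 of 5xCHI + vehicle, and the ranges overlapped over most of their length (log2 fold change -0.13 ± 0.05 SE, adjusted p = 0.659 by edgeR). Rpl9, of the large subunit, averaged 243 ± 30.9 and 269 ± 36.2 CPM in the same order (-0.12 ± 0.05 SE, adjusted p = 0.667 by edgeR). The S6 kinase substrate Rps6 measured 120, 137 and 185 CPM with SB against 121, 151 and 195 CPM with vehicle, at a log2 fold change of -0.11. Rps27a was at -0.14, Rps14 at -0.13, Rpl22l1 at -0.15, Rpl5 and Rpl11 at -0.09 and Rpl13 at -0.02.

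Oligodendrocyte markers were lower in the same comparison. All 6 of 6 had a log2 fold change below 0, against 47.8% of all genes, with a median of -0.37. All 6 had an unadjusted p under 0.05, against 7.06% of all genes, and 0 passed. Their summed level was 2350, 6525 and 8309 CPM (lowest, median and highest) in 5xCHI + SB and 4931, 6987 and 11744 CPM in 5xCHI + vehicle. The lowest SB libraries were M 5xCHI + SB replicate 8 at 2350 CPM and F 5xCHI + SB replicate 8, a far library, at 2858 CPM. The marker fold changes were not repeated without them. The part of these markers in the ribosomal protein gene values was not tested. In injury against sham with vehicle the same 6 markers were all above 0, with a median of 0.05. Of all genes, 50.6% were below 0 there.

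Within cohorts the SB difference had the same sign in most. The median member difference between 5xCHI + SB and 5xCHI + vehicle was below 0 in 6 of 8 cohorts, between -0.29 in F2 and 0.09 in M4 (log2 CPM). The difference for Rps6 was below 0 in 7 of 8 cohorts and ran from -0.24 in F2 to 0.07 in M2. For injury against sham with vehicle the median was below 0 in 5 of 8 cohorts, between -0.34 in M1 and 0.09 in F4. M1 and F2, the 2 cohorts with the lowest values for injury, each hold a single sham + vehicle library, and these are 2 of the 4 libraries with the highest member means. With 1 to 5 libraries in an arm, these values carry no test.

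**Figure D4:**
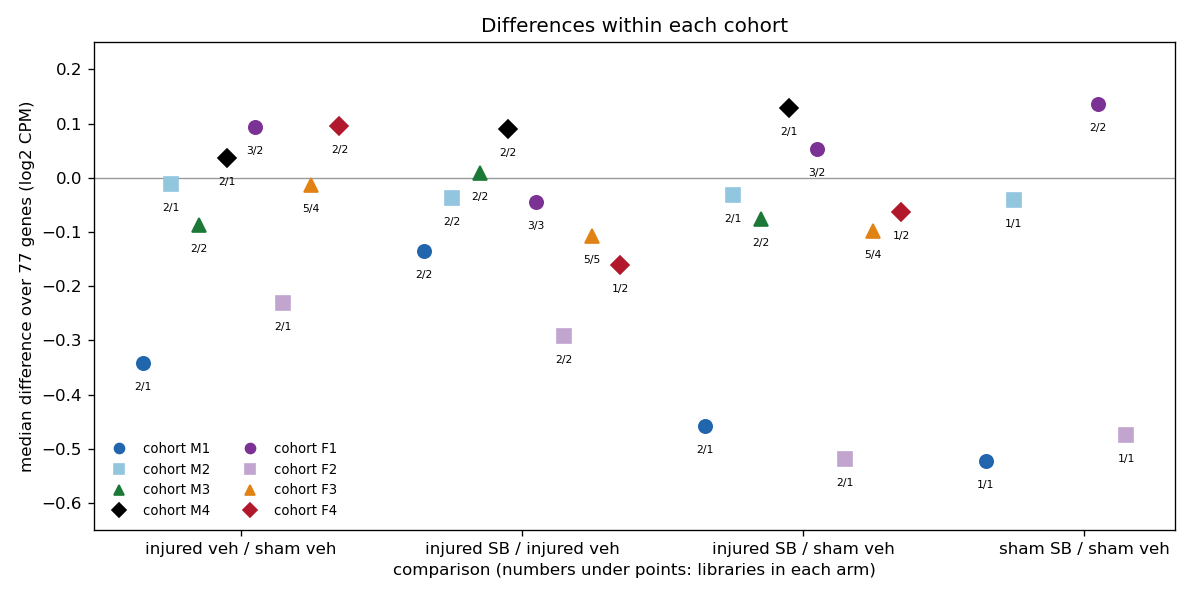
Median difference over the 77 genes (log2 CPM) within each cohort for 4 comparisons, with the libraries in each arm under the point. For SB in injured mice 6 of 8 cohorts lie below 0, and the lowest points of the comparisons against sham + vehicle come from M1 and F2, which have 1 such library each.

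The injured SB mice were also compared with sham + vehicle mice, the comparison that joins both treatments. Here 0 members passed by edgeR, DESeq2 and voom (0% of all genes by edgeR). By edgeR 37 (48.1%) had an unadjusted p under 0.05, against 12.6% of all genes. With length-corrected scaling 11 did, and with voom 2. All 77 were below 0, against 49.8% of all genes, at a member median of -0.12. This comparison shares its libraries with the previous ones and is no further evidence for them. Rps3 measured 221, 252 and 352 CPM (lowest, median and highest) in 5xCHI + SB against 234, 295 and 471 CPM in sham + vehicle (log2 fold change -0.19 ± 0.06 SE, adjusted p = 0.329 by edgeR). Rpl30 averaged 95.8 ± 18.3 against 115 ± 25.8 CPM, at -0.23, with the same adjusted p by edgeR. The groups overlapped for both genes. Without M sham + vehicle replicate 4, 5 members had an unadjusted p under 0.05, and without the 4 far libraries 3 did, at a median of -0.03. The within-cohort medians ran from -0.52 in F2 to 0.13 in M4.

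In sham mice SB gave values in the same direction from few libraries. Of 77 members 76 were below 0, against 52.9% of all genes, at a median of -0.13. By edgeR 7 (9.09%) had an unadjusted p under 0.05, against 7.02% of all genes. By edgeR, DESeq2 and voom 0 passed (0% of all genes). Rpl30 measured 107, 80.03 and 90.8 CPM in the female and 82.2 and 84.6 CPM in the male sham + SB libraries, against 79.1, 113 and 155 CPM (lowest, median and highest) in the 14 of sham + vehicle (log2 fold change -0.27 ± 0.11 SE, adjusted p = 0.677 by edgeR). All 5 values lay within the sham + vehicle range. Rps3 measured 273, 254 and 273 CPM in the females and 237 and 249 CPM in the males with SB, against a sham + vehicle median of 295 CPM, at -0.21. Rpl7l1 was the single member above 0, at 0.03. The median was -0.52 in M1 and -0.48 in F2, where 1 library stands against 1, and -0.04 in M2 and 0.14 in F1. With voom 38 members were below 0, at a median of 0.0018, and the count with an unadjusted p under 0.05 was 15 without the cohort term and 1 without the 4 far libraries.

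The interaction asks whether the SB difference was larger in injured than in sham mice. Of the members 70 had a value above 0, against 52.2% of all genes, at a median of 0.06. By edgeR 0 passed (0% of all genes; also 0 by DESeq2 and voom) and 0 had an unadjusted p under 0.05, against 1.38% of all genes. In the main edgeR fit the SB difference was thus nearer 0 in injured than in sham mice for most members. Rpl36a was at 0.14 ± 0.12 SE and Rps7 at 0.11 ± 0.10 SE, and Rpl7l1 at -0.06 and Rps15a at -0.03 lay on the other side of 0. Rps7 averaged 180 ± 18.7 CPM in 5xCHI + SB and 193 ± 24.8 CPM in 5xCHI + vehicle, and 171 ± 8.22 CPM in sham + SB against 199.9 ± 36.0 CPM in sham + vehicle. Without M sham + vehicle replicate 4, 36 members were above 0, and without the 4 far libraries 25. With length-corrected scaling 39 were above 0, and with voom and quality weights 1, so the direction depended on the setting.

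**Figure D5:**
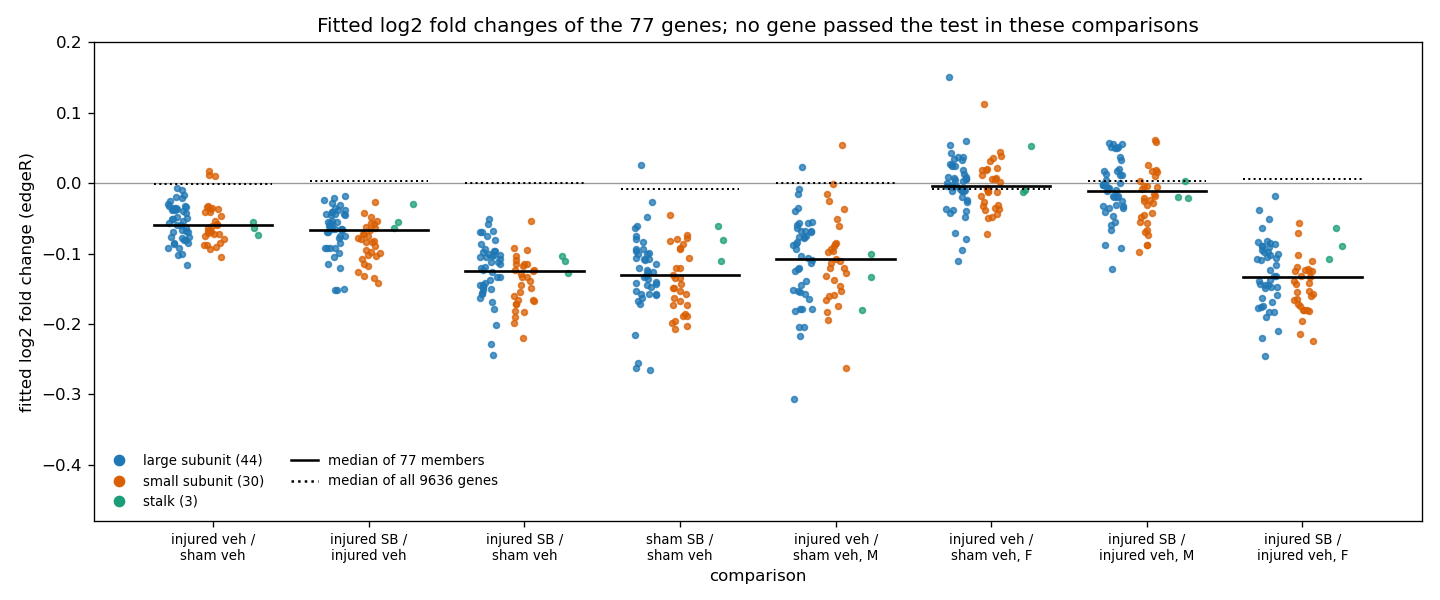
Fitted log2 fold changes of the 77 genes in 8 comparisons, coloured by subunit, with the member median (solid) and the median of all 9636 genes (dotted). For SB in injured mice all 77 points lie below 0, with the female points at a median of -0.13 and the male points at -0.01.

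Injury and SB gave different values in males and females, although no difference between the sexes passed. In males 75 of 77 members were below 0 for injury, against 49.8% of all genes, at a median of -0.11. Of the 77, 4 (5.19%) had an unadjusted p under 0.05 by edgeR, against 3.55% of all genes. With voom 26 members were below 0 in males, at a median of 0.03. In females 40 were below 0, against 55% of all genes, at a median of -0.0043, and 0 had an unadjusted p under 0.05, against 3.14% of all genes. The difference of the injury effects, male minus female, was below 0 for 68 members, against 48.2% of all genes, with a median of -0.11. For it 3 members (3.90%) had an unadjusted p under 0.05 by edgeR, against 6.13% of all genes. In these 3 comparisons edgeR, DESeq2 and voom called 0 members (0% of all genes by edgeR), while voom called 8 other genes for the difference.

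Rpl13 and Rps2 had the largest such difference. They were each other's closest partners (correlation 0.91), and both were lowest among males in M 5xCHI + vehicle replicate 7, at 132 and 177 CPM. The 2 genes are therefore not separate evidence. Rpl13 measured 132, 183 and 234 CPM (lowest, median and highest) in M 5xCHI + vehicle, against 195, 275, 202, 253 and 198 CPM in the 5 libraries of M sham + vehicle. In females it measured 160, 198 and 257 CPM in 5xCHI + vehicle and 112, 179 and 301 CPM in sham + vehicle. The ranges overlapped in both sexes, and the male sham + vehicle median was the highest of the 4. The log2 fold change for injury was -0.31 ± 0.14 SE in males and 0.15 ± 0.11 SE in females, a difference of -0.46 ± 0.18 SE (adjusted p = 0.786 by edgeR). Rps2, which guides mRNA into the small subunit, was at -0.26 in males and 0.11 in females, a difference of -0.38 ± 0.15 SE (adjusted p = 0.786 by edgeR). It measured 239, 382, 216, 299 and 228 CPM in M sham + vehicle, where replicate 2, the 382 CPM library, is 1 of the 4 far ones. Rps15a (0.05) and Rpl5 (0.02) were the 2 members above 0 in males, and Rps3 (-0.07) and Rpl30 (-0.09) had the smallest p below 0 in females.

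The female injury value moved with single sham + vehicle libraries. Without F sham + vehicle replicate 7, 6 members were below 0, and without replicate 4, 60 were. Without the 4 far libraries, which include F sham + vehicle replicates 1 and 7, 2 members were below 0, at a median of 0.14, and 39 had an unadjusted p under 0.05. In males without M sham + vehicle replicate 4 the median was -0.02, with 48 members below 0, and the difference between the sexes was at a median of -0.02. Without the 4 far libraries 27 members had an unadjusted p under 0.05 for that difference. The share of all genes without these libraries is not given, so the counts of 39 and 27 are not set against it.

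For SB in injured mice the larger values were female. All 77 members were below 0 in females, against 47.3% of all genes, at a median of -0.13. Of them 32 (41.6%) had an unadjusted p under 0.05 by edgeR, against 7.21% of all genes. In males 51 were below 0, against 48.1% of all genes, at a median of -0.01, and 0 had an unadjusted p under 0.05, against 1.88% of all genes. By edgeR and DESeq2 0 genes passed in either sex (0% of all genes by edgeR), and voom called 2 genes in females and no member. The difference, male minus female, was above 0 for 75 members, against 48.4% of all genes, with a median of 0.12. For it 2 members (2.60%) had an unadjusted p under 0.05 by edgeR, against 0.913% of all genes. By edgeR, DESeq2 and voom 0 passed (0% of all genes). With length-corrected scaling 17 members had an unadjusted p under 0.05 in females. The female median was -0.13 without the 4 far libraries, -0.06 with length-corrected scaling and -0.10 with voom. Without M 5xCHI + SB replicate 6 the male median was -0.04, with 66 members below 0.

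Rps24, a small subunit gene with alternatively spliced ends, measured 139, 166 and 205 CPM in F 5xCHI + SB, against 165, 197 and 276 CPM in F 5xCHI + vehicle (log2 fold change -0.22 ± 0.07 SE, adjusted p = 0.693 by edgeR). The SB median lay near the lowest vehicle library. In males it measured 173, 192 and 256 CPM in 5xCHI + SB and 172, 193 and 242 CPM in 5xCHI + vehicle. Rpl26, which binds the p53 mRNA as well as the ribosome, measured 130, 151 and 200 CPM in F 5xCHI + SB and 155, 176 and 248 CPM in F 5xCHI + vehicle (-0.22 ± 0.07 SE, adjusted p = 0.693 by edgeR). The lower end of its vehicle range was thus above the SB median. In males it averaged 179 ± 27.8 CPM with SB and 178 ± 19.5 CPM with vehicle, and the sexes differed by 0.23 ± 0.11 SE. Rpl37, a zinc-binding protein of the large subunit, differed most between the sexes, by 0.25 ± 0.11 SE (adjusted p = 1.0 by edgeR), with 98.5 ± 10.6 against 94.7 ± 7.39 CPM in males and 88.1 ± 5.60 against 102 ± 16.2 CPM in females. In males Rpl37 and Rpl10a were above 0, at 0.06 and 0.05, and Rps15a was below 0, at -0.09. Rps15a and Rpl36 were the 2 members whose difference between the sexes was below 0, at -0.03 and -0.00041.

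The genes that build and drive ribosomes were examined beside the ribosomal protein genes, in lists drawn by known function. In every list below 0 genes passed for injury with vehicle or for SB in injured mice by edgeR (0% of all genes). Of all genes, 50.6% were below 0 for injury and 47.8% for SB. The list counts were not repeated without the 4 far libraries or with voom. In those settings 8 and 2 of the 77 ribosomal protein genes were below 0 for injury. The ribosomal protein genes outside the name rule, Fau and Rack1, were both below 0 in both comparisons, at -0.09 and -0.03 for injury and at -0.03 and -0.04 for SB. Of 104 measured ribosome biogenesis factors (of 105 listed), 70 were below 0 for injury and 71 for SB, each at a median of -0.02. Rrp36, which acts in early cleavage of pre-rRNA, was at -0.16 and Tsr3, which modifies 18S rRNA, at -0.15 for injury. Nol6 and Rrp12, both of the small subunit precursor, were at 0.09 and 0.10 for SB. In the female cohorts 39 of the 104 (37.5%) differed, against 50% of all genes.

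Of 18 measured RNA polymerase I genes (of 22), which transcribe rRNA, 14 were below 0 for injury and 11 for SB, at medians of -0.02 and -0.01. Polr2k, a subunit shared by 3 polymerases, was at -0.19 and the rDNA factor Ubtf at -0.06 for injury, and Tcof1 at 0.09 and Polr1a at 0.06 for SB. Of the non-ribosomal TOP mRNAs and elongation factors, 23 of 28 measured (of 33) were below 0 for injury and 25 for SB, at medians of -0.03 and -0.05. Eef1d and Pabpc4 were at -0.11 and -0.09 for injury, and the elongation factor Eef1b2 and the TOP host transcript Gas5 at -0.13 and -0.14 for SB. In the female cohorts 18 of these 28 (64.3%) differed, against 50% of all genes. Initiation factors were below 0 in 25 of 37 (of 39 listed) for injury and in 31 for SB, at medians of -0.01 and -0.03. Eif3g was at -0.08 and the heme-regulated kinase gene Eif2ak1 at 0.05 for injury, and Eif4e2 at -0.09 and Eif2b1 at -0.12 for SB.

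The mTORC1, S6 kinase and LARP1 genes that control TOP mRNAs did not lean the same way. Of 40 measured (of 43) 19 were below 0 for injury, at a median of 0.0038, and 15 for SB, at a median of 0.03. The mTORC1 inhibitor Ddit4 was at -0.26 and the lysosomal anchor Lamtor2 at -0.15 for injury, and Lamtor5 at -0.11 and Nprl3 at 0.10 for SB. Mitochondrial ribosomal proteins, which belong to a separate ribosome, were below 0 in 63 of 73 for injury and 53 for SB, at medians of -0.04 and -0.03. Mrps21 and Mrpl9 were at -0.13 and -0.09 for injury, and Mrps31 and Mrpl35 both at -0.11 for SB. All 25 measured oxidative phosphorylation genes (of 40 listed) were below 0 in both, at medians of -0.10 and -0.06. Ndufs5 and Ndufc1 of complex I were at -0.15 and -0.16 for injury, and Cox7a2 and Cox6b1 of complex IV at -0.14 and -0.12 for SB. In the female cohorts 13 of the 25 (52.0%) and 23 of the 73 mitochondrial ribosomal protein genes (31.5%) differed, against 50% of all genes. The shares of the lists were not tested against each other.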

How the data were processed

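The deposited table holds raw read counts of 9636 genes in 58 libraries. Per the labels' protocols, total RNA came from a Qiagen RNeasy preparation, and NEBNext Ultra II Directional libraries were built after poly(A) selection. The submitters' processing notes name STAR, featureCounts, DESeq2 and the build GRCm39/mm39; no version, annotation or strand setting is stated. The counts as the authors deposited them went into edgeR 4.0.16 under R 4.3.3 (TMM scaling, robust quasi-likelihood test), with all 8 groups in 1 model and cohort as a term within sex (14 coefficients, 44 residual degrees of freedom). A comparison over both sexes averages the male and the female difference. Tests were two-sided, with Benjamini-Hochberg adjustment over 9636 genes and a threshold of 0.05. Fold changes are given on the log2 scale with their SE, levels as TMM-scaled CPM, and log2 CPM has a prior count of 2. Totals of 28316280 to 49158277 cover listed genes only. The biological coefficient of variation was 0.123.

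The members and lists were chosen with earlier results of these data known. Members named with values follow 1 rule: roles, paralogs, the 4 highest and lowest levels, the smallest p per comparison and direction (3 for the main comparisons, 2 for the others, 4 for cohorts), and the extremes of co-variation and spread. A few members and 1 marker named by the lists are not reported here, and 2 members are not drawn in the plots by gene. Labels name separate samples without stating separate animals, so p-values measure the spread between these samples, which may be partly technical. Libraries of 1 group always differed by more than sampling noise (chi-square per degree of freedom at least 9.83). Transcript lengths came from the GENCODE basic annotation of GRCm38 for 9634 genes. On simulated data for injury with vehicle, the fit recovered 33% of 100 genes changed by 0.2 on the log2 scale and 100% of 100 changed by 0.5, with 5 false calls among 9636 genes. Alternatives were other scalings, DESeq2 1.42.0, voom of limma 3.58.1, a count minimum, models without cohort, with the replicate block, with length-corrected scaling or by sex, and leaving out libraries.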

Additional observations from a re-analysis of the deposited data

Results flagged for a closer look

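A few single values stood apart from the other libraries of their group, by a gap larger than Dixon's 95% limit. M 5xCHI + SB replicate 6, of cohort M4, was the high library for Rpl23 at 209 CPM, Rpl26 at 242 CPM, Rps20 at 81.8 CPM, Rps24 at 256 CPM, Rps6 at 185 CPM and Rps7 at 235 CPM. All 77 members lay above their own mean in that library, and its length slope was -0.09. M 5xCHI + vehicle replicate 7, of cohort M3, was the low library for Rps2 at 177 CPM. These are 7 of 188 sets of values tested, and chance alone sets apart about 1 in 20. The sets cover the 46 named members and the mean over all 77 members, in the 4 groups of 4 to 10 libraries. Groups of 2, 3, 11 and 12 libraries were not tested this way.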

How the results depend on the processing

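Every alternative setting left 0 members called for each comparison of condition or sex. Leaving out the 4 far libraries and voom with quality weights were chosen after seeing the data. Without the far libraries, members below 0 numbered 8 for injury with vehicle and 2 for injury in females. For the interaction 25 were above 0, and the male cohorts gave 1258 genes (13.1%) and 20 members (26.0%). With voom, members below 0 numbered 2 for injury with vehicle, 51 for injured SB against sham vehicle, 38 for SB in sham mice, 26 for injury in males and 5 in females, and 1 was above 0 for the interaction. Voom called 1 gene for SB in injured mice, 2 for SB in females and 8 for the sex difference of injury. For male cohorts it called 3045 genes (31.6%) with 41 members (53.2%). Length-corrected scaling gave 39 members above 0 for the interaction and 20 below 0 for injury in females. It called 5 members (6.49%) for male cohorts, against 4.85% of all genes. The male cohorts gave 613 genes (6.36%) and 4 members (5.19%) with the DESeq2 test. With DESeq2 size factors 1 member (1.30%) was called, against 3.73% of all genes. Separate fits by sex gave 746 genes (7.74%) and 2 members (2.60%). A mean count of 1000 or more gave 1 member, and the share of all genes is not given there. The causes were not tested.

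Some members near 0 changed sign. For injury with vehicle, Rps16 was at 0.029, Rps3 at 0.0075 and Rps15a at -0.0081 without the far libraries, and Rps16 at 0.050 and Rps3 at 0.032 with voom. For injury in females Rpl30 was at 0.012 and Rps3 at 0.067 without the far libraries, and at 0.020 and 0.032 with voom. The interaction was 0.0056 for Rps15a without the far libraries, and -0.052 for Rpl36a and -0.00093 for Rps7 with voom. The sex difference of SB for Rpl36 was 0.00028 with DESeq2 size factors, 0.0063 with TMM without ribosomal protein genes, 0.010 with upper quartile factors, 0.0072 with the count minimum and 0.017 without cohort.

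The replicate numbers showed no general pairing of libraries. With group means removed, 21 of 62 same-number pairs correlated above 0.1, at a median of 0.0005, and pairs of other numbers had a median of -0.0028. Cohort means were not removed in this check, and pairing of single libraries was not tested. With the replicate block, 26 members were below 0 for injury in females. Rps15a and Rps24 were at -0.0073 and -0.0022 for injury with vehicle. Cohorts gave 2602 genes (27.0%) and 29 members (37.7%) in females, and 90 genes (0.934%) and 0 members in males. In males the block gave Rps15a -0.0019 and Rpl5 -0.051 for injury, and -0.038 for the sex difference of Rpl5. The block with length-corrected scaling gave 36 members above 0 for the interaction and 21 below 0 for injury in females. It gave Rpl5 at -0.030 for injury in males and -0.016 for the sex difference. Female cohorts gave 2422 genes (25.1%) and 19 members (24.7%), and male cohorts 198 genes (2.05%) and 3 members (3.90%).

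Leaving out 1 library at a time gave 47 to 76 members below 0 for injury with vehicle, 48 to 76 in males and 6 to 60 in females, 35 to 66 for SB in males, and 45 to 75 for the sex difference of injury. The interaction had 36 to 75 above 0. Female cohorts gave 46 to 64 members among 4283 to 5375 genes, and male cohorts 0 (in most settings) to 9 members, the 9 without M sham + vehicle replicate 4, among 28 genes without M sham + vehicle replicate 1 to 769 without F sham + vehicle replicate 7. For injury with vehicle Rps15a ran from -0.0077 to 0.069, Rps24 from -0.020 to 0.095 and Rps27 from -0.018 to 0.059. Rps3 ran from -0.10 to 0.0038 for injury in females, Rpl5 from -0.045 to 0.16 in males and from -0.0018 to 0.21 for the sex difference, Rps15a from -0.091 to 0.012 for the interaction, and Rpl36 from -0.050 to 0.044 for the sex difference of SB. The smallest member count was 231. What parts depth and the spread between libraries played in these results was not tested.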
